A study of Mus musculus with 10 samples.

Results

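Of the 15341 genes in the count table of 10 mouse hearts, 36 were taken here by name for their work in glucose uptake, glycolysis, lactate handling and glycogen turnover. All 36 were in the table and all passed the filter on low counts, so each was tested among 12992 genes. The hearts came from 5 male plasma S1Pless mice (Sphk1f/-:Sphk2f/-:Mx1Cre+) and 5 male littermate controls (Sphk1f/-:Sphk2f/-:Mx1Cre-). Thus the controls, too, had a floxed and a null allele at the genes for both sphingosine kinases, the enzymes that form sphingosine 1-phosphate (S1P), and the groups differed by Mx1-Cre, a recombinase driven by an interferon-inducible promoter that acts in blood-forming cells and in some cells of other organs. The sources used here do not give the age of the animals, how Cre was induced or which part of the heart was taken. The comparison asks how transcripts of the whole heart differ in mice described as lacking S1P in plasma.

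Heart muscle takes up glucose through the transporters GLUT1 and GLUT4, traps it by phosphorylation and either sends it down glycolysis to pyruvate and lactate or stores it as glycogen. Most steps have more than 1 isoform: a form typical of striated muscle or heart, such as GLUT4 (Slc2a4), hexokinase II (Hk2), muscle phosphofructokinase (Pfkm) or muscle phosphorylase (Pygm), and a form found in most cells or in other tissues. The adult heart draws most of its energy from fatty acids, and glucose use is set largely by transport, by hexokinase and by phosphofructokinase.

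Sequencing depth ranged from 17204491 to 20202283 counts among the 5 controls and from 16354071 to 20832566 among the 5 S1Pless hearts. Levels are given as CPM, depth-scaled counts after TMM, a correction for library composition, and 1 count was worth 0.0451 to 0.0658 CPM. The summed level of 8 cardiomyocyte markers was 54745.9 to 64250.1 CPM in the controls and 46206.8 to 57709.6 CPM in the S1Pless hearts. None of the 8 passed the test, all 8 had log2 fold changes below 0, and their median was -0.18. The summed level of 10 macrophage markers was 345.5 to 506.8 CPM in the controls and 620.2 to 1578.3 CPM in the S1Pless hearts, highest in S1Pless replicate 5, and 6 of the 10 passed as higher. Skeletal muscle markers summed to at most 3.35 CPM and adipocyte markers to at most 2.26 CPM in any heart, and Myh4, which defines fast skeletal muscle, had no counts. RNA of whole hearts does not separate fewer cells of a type from less RNA per cell.

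A single member, Pfkfb3, passed the test, and it was higher in S1Pless hearts. No member passed as lower, although 30 of the 36 had log2 fold changes below 0. The lack of a call does not show that a gene is unchanged. In a single draw of simulated counts the test called 10.2% of genes altered 1.3-fold and 63.3% of those altered 1.5-fold. The altered genes were picked at random from all tested genes, whereas 20 of the 36 members lay above 100 CPM. The rates are thus not those of the members. With edgeR's quasi-likelihood test and an adjusted p below 0.05, 1 of 36 members was called, or 2.78%, against 3.72% of all genes tested; 3.4% of all genes were called higher and 0.316% lower. At an unadjusted p below 0.05, 8 members were lower, or 22.2%, against 6.82% of all genes, and 2 were higher, or 5.56%, against 13.0% of all genes. The median log2 fold change was -0.19 over the members and -0.01 over all tested genes, where 52.6% lay below 0. DESeq2 called 5 members lower, namely Slc2a4, Hk2, Pfkm, Pgk1 and Gyg, with adjusted p from 0.0185 to 0.0359, where it called 1.92% of all genes lower. limma-voom, run with quality weights for the hearts, called no member lower, and 0.439% of all genes. Scaled by library totals alone, the median of all genes shifted to 0.12 and that of the members to -0.07, so the distance between them was -0.19 instead of -0.18, and no member was lower at an unadjusted p below 0.05. The median of the cardiomyocyte markers, -0.18, was close to that of the members, and the part of muscle content in the members' values was not tested.

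**Figure D1:**
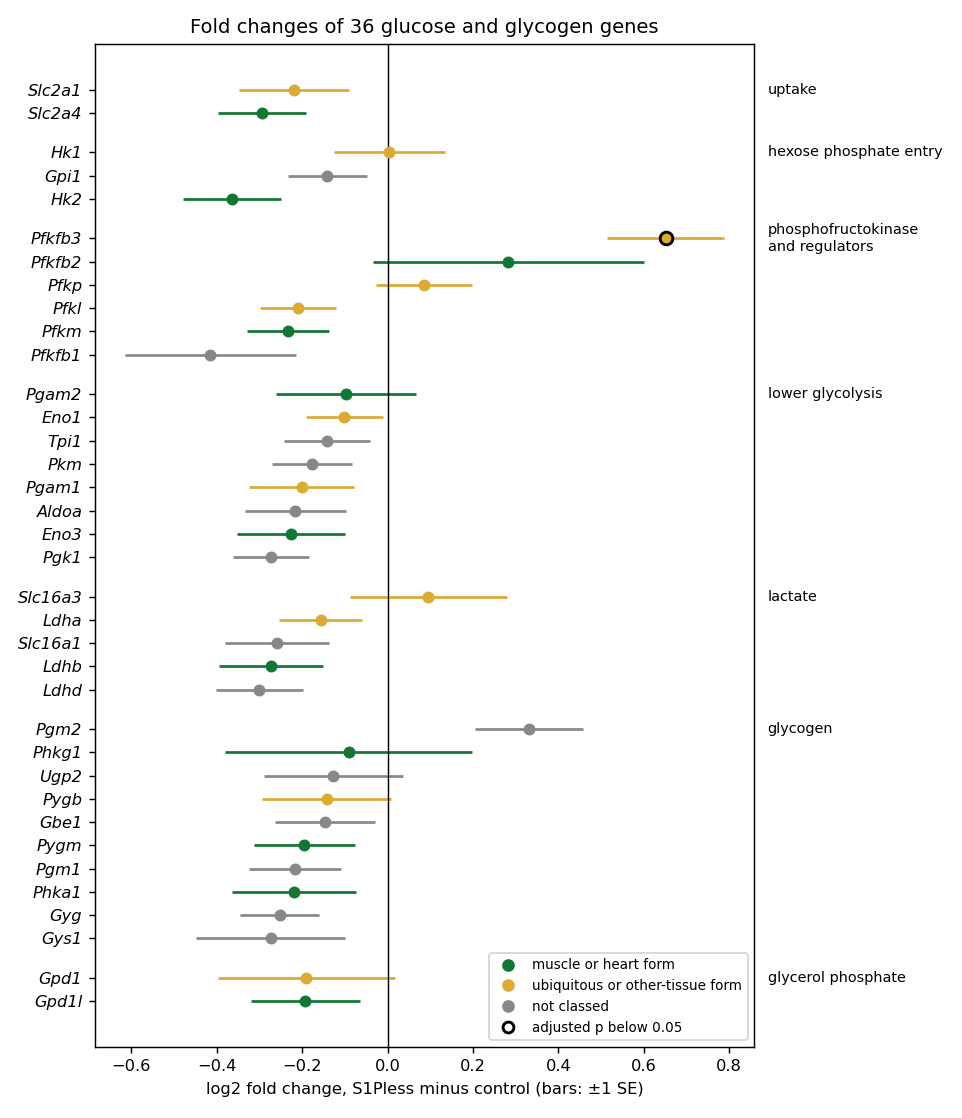
Log2 fold changes (S1Pless minus control, 5 hearts each) of the 36 genes, grouped by role, with bars of 1 SE; colours mark muscle or heart forms and forms of other tissues, and a black ring marks an adjusted p below 0.05. Pfkfb3, at 0.65, is the only ringed gene, and 30 points lie left of 0.

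Pfkfb3 encodes the inducible form of the bifunctional enzymes that make and break down fructose bisphosphate of the kind that activates phosphofructokinase, and it is known as a target of hypoxia-inducible factors and as a driver of glycolysis in endothelial cells and activated macrophages. Its levels were 15.2, 11.8, 13.7, 15.6 and 14.2 CPM in control replicates 1 to 5 and 27.8, 21.9, 19.8, 16 and 25.1 CPM in S1Pless replicates 1 to 5. Every S1Pless heart lay above every control, with S1Pless replicate 4 only just above control replicate 4. The means were 14.1 ± 1.5 and 22.1 ± 4.58 CPM (SD, n = 5 each), from 219 to 616 reads a library, and the fitted change was 1.57-fold (log2 0.65 ± 0.14 SE, edgeR adjusted p = 0.0215). Leaving out control replicate 2, 3 or 4, or S1Pless replicate 5, took the edgeR adjusted p to between 0.0501 and 0.0603. A block for hearts with neighbouring title numbers took it to 0.0707, while the log2 fold change stayed between 0.56 and 0.76 with any single heart left out. S1Pless replicate 4 had both the lowest Pfkfb3 level and the lowest macrophage marker sum of its group, 620.2 CPM, whereas S1Pless replicate 5, with the highest macrophage sum, came second to replicate 1 in Pfkfb3. The summed endothelial markers were 1011.8 to 1134.1 CPM in the controls and 1056.7 to 1277.0 CPM in the S1Pless hearts, highest in S1Pless replicate 1, which also had the highest Pfkfb3 level, and 1 of 6 passed as higher. The summed fibroblast markers were 720.2 to 972.4 and 933.5 to 1237.1 CPM, and 1 of 6 passed as higher. The part of macrophage, endothelial or fibroblast content in the Pfkfb3 difference was not tested.

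The windows of 250 bases before the annotated starts of Pfkfb3 are shown because it is the called gene, and that of Hk2 because it had the smallest p among members with lower levels. They are RefSeq sequences on the minus strand of GRCm38.p6, a build older than the one used for the counts, printed 5′ to 3′. Capitals mark matches on either strand to ACGTG, a form of the core of the hypoxia response element, including CACGTG, the E-box that contains it. Other forms of that core, such as GCGTG, were not searched for.

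Pfkfb3 at chr2:11553930-11554179: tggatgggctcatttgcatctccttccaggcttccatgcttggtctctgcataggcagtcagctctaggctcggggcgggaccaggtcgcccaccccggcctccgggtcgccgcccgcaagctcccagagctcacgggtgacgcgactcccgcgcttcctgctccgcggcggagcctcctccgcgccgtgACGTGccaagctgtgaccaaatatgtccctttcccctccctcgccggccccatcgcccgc

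Pfkfb3 at chr2:11502091-11502340: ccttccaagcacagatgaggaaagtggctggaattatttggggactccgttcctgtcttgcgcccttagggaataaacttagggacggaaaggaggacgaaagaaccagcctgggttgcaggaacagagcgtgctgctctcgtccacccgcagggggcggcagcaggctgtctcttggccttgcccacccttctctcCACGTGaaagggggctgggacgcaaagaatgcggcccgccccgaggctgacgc

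Hk2 at chr6:82774455-82774704: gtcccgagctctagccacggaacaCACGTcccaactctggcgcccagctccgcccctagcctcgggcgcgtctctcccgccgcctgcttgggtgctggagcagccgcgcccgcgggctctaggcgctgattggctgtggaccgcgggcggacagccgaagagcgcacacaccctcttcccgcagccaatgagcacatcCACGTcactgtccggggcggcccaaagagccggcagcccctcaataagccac

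ACGTG matched once in the first Pfkfb3 window, in the second as part of an E-box that matches on both strands, and at 2 places in the Hk2 window. Of all 32851 RefSeq windows of this length 16.6% hold ACGTG and 6.0% hold CACGTG. RefSeq windows were matched for 34 of the 36 members, and of their 51 windows, some of which belong to the same gene, 45.1% hold ACGTG and 13.7% hold CACGTG. Pfkfb3 and Hk2 thus share the motif, and whether it bears on the level of either gene was not tested. A match is only a run of letters and does not show binding.

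The other genes around phosphofructokinase had no call. Pfkm, the muscle form of the enzyme that commits sugar to glycolysis, stood at 995.6, 972.2, 1051.4, 1039.0 and 970.4 CPM in the controls and at 778.0, 942.8, 914.5, 879.5 and 761.6 CPM in the S1Pless hearts. The groups did not overlap, with control replicate 5 and S1Pless replicate 2 nearest to each other, and the log2 fold change was -0.23 ± 0.10 (edgeR adjusted p = 0.197). Groups without overlap were seen in 3 members (Pfkfb3, Pfkm and Gyg), or 8.33%, against 6.35% of all genes. Higher in S1Pless was Pfkfb3, where 4.53% of all genes had such a gap, and lower were Pfkm and Gyg, where 1.82% did. Of the exon bases of Pfkm 10.2% overlap another gene on the same strand. Pfkl, the liver form, had 125.6 ± 10.1 CPM in the controls and 108.7 ± 8.25 CPM in the S1Pless hearts, and Pfkp, the platelet form, 51.8 ± 7.81 and 55.0 ± 5.97 CPM. Per kilobase of exon, Pfkm made up 93.0 ± 0.383% of the 3 forms in controls and 92.6 ± 0.29% in S1Pless hearts. Exon length joins all annotated exons of a gene, 13401 bases for Pfkp against 4145 in its longest coding transcript. The sizes of shares per kilobase, here and below, depend on that choice of length.

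Pfkfb1, the bifunctional enzyme gene of liver and muscle, had a log2 fold change of -0.42 ± 0.20, with 26.7 to 56.8 CPM in the controls and 19.8 to 39.8 CPM in the S1Pless hearts (edgeR adjusted p = 0.268). Without control replicate 1, its highest heart, the log2 fold change was -0.23. Among the 3 bifunctional enzyme genes measured, Pfkfb3 thus held 17 ± 2.81% of the level per kilobase in controls and 29.5 ± 5.33% in S1Pless hearts. These shares carry a doubt about Pfkfb2, the gene best known as the heart form, which had only 4 to 17 reads a library. An annotated gene, Gm29427, shares 24.3% of the windows of 75 bases in the Pfkfb2 transcript and had 140 to 298 reads, so the count of Pfkfb2 depends on how reads in overlapping genes were assigned. The sources used here do not give that rule.

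No gene of glucose entry was called. Slc2a4, the insulin-responsive transporter GLUT4, stood at 392.7, 429.5, 446.9, 436.2 and 458.9 CPM in the controls and at 339.8, 416.7, 303.9, 378.0 and 326.8 CPM in the S1Pless hearts. Only S1Pless replicate 2 lay within the control range, and the log2 fold change was -0.29 ± 0.10 (edgeR adjusted p = 0.135). Slc2a1, the basal transporter GLUT1, was at 20 to 26.5 CPM in the controls. Its S1Pless values were 16.1 to 19 CPM in 4 hearts and 26.6 CPM in replicate 4. Slc2a4 made up 95.0 ± 0.417% of the level per kilobase of both transporters in controls and 94.8 ± 0.804% in S1Pless hearts.

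Hk2, the insulin-regulated hexokinase of muscle that binds mitochondria, had 265.2, 360.2, 324.6, 339.3 and 386.9 CPM in the controls and 227.3, 276.0, 277.7, 284.5 and 237.2 CPM in the S1Pless hearts. All but control replicate 1 lay above the highest S1Pless heart. The log2 fold change was -0.36 ± 0.12 with an edgeR adjusted p of 0.0978. That became 0.035 without control replicate 1 and was up to 0.222 with another heart left out. Hk1, the hexokinase of most tissues, had 145.8, 222.7, 169.7, 181.2 and 199.7 CPM in the controls and 143.4, 180.0, 209.1, 185.1 and 204.1 CPM in the S1Pless hearts, with a log2 fold change of 0.00 ± 0.13. Control replicate 1 and S1Pless replicate 1 were the lowest of their groups in both hexokinases. Gpi1, which turns glucose phosphate into fructose phosphate, had 470.2, 476.5, 520.0, 468.5 and 420.6 CPM in the controls and 400.4, 457.1, 424.6, 453.0 and 401.9 CPM in the S1Pless hearts, and the groups overlapped (log2 fold change -0.14 ± 0.09, edgeR adjusted p = 0.429).

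The ratio of 2 isoforms in the same heart does not depend on the scaling of libraries, and 11 such ratios were compared. The muscle or heart form was set over the other, except in Slc16a1 over Slc16a3, where Slc16a1 was not classed. The ratio of Hk2 to Hk1 differed most clearly. Its log2 value was 0.86, 0.69, 0.94, 0.91 and 0.95 in controls and 0.66, 0.62, 0.41, 0.62 and 0.22 in S1Pless hearts, so that every S1Pless heart lay below every control. The mean difference was -0.37 (exact two-sided permutation p = 0.00794, the smallest that 5 against 5 hearts can give, adjusted p = 0.0873 over 11 ratios). A single ratio cannot reach an adjusted p under that value here, so this one did not pass. Per kilobase, Hk2 made up 72.3 ± 1.47% of both hexokinases in controls and 66.9 ± 2.94% in S1Pless hearts. Annotated exons cover 8532 bases in Hk1 and 5969 in Hk2, against 4278 and 5513 in their longest coding transcripts. With transcript lengths the share of Hk2 would thus be smaller in either group.

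S1Pless replicate 5, with the lowest ratio, also had the highest macrophage marker sum and the lowest cardiomyocyte marker sum, 46206.8 CPM. Without it the difference was -0.29 and the groups still did not overlap. The next largest differences were -0.33 for Pfkm over Pfkp (exact permutation p = 0.0635, adjusted p = 0.349) and -0.33 for Slc16a1 over Slc16a3 (exact permutation p = 0.103, adjusted p = 0.378). The other 8 ratios differed by -0.27 to 0.12, with exact permutation p from 0.254 to 0.992. Over the 11 muscle or heart forms 10 log2 fold changes lay below 0, with a median of -0.22, and over the 11 other forms 7 lay below 0, with a median of -0.14. These medians describe the fitted values, and the difference between them was not tested. The muscle or heart forms were Slc2a4, Hk2, Pfkm, Pgam2, Eno3, Ldhb, Pfkfb2, Pygm, Phka1, Phkg1 and Gpd1l. The others were Slc2a1, Hk1, Pfkl, Pfkp, Pgam1, Eno1, Ldha, Pfkfb3, Pygb, Gpd1 and Slc16a3. The classes are not matched gene for gene. Phka1 and Phkg1 have no partner, and Gys1, Aldoa and Pkm, though named below for muscle, were not classed.

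**Figure D2:**
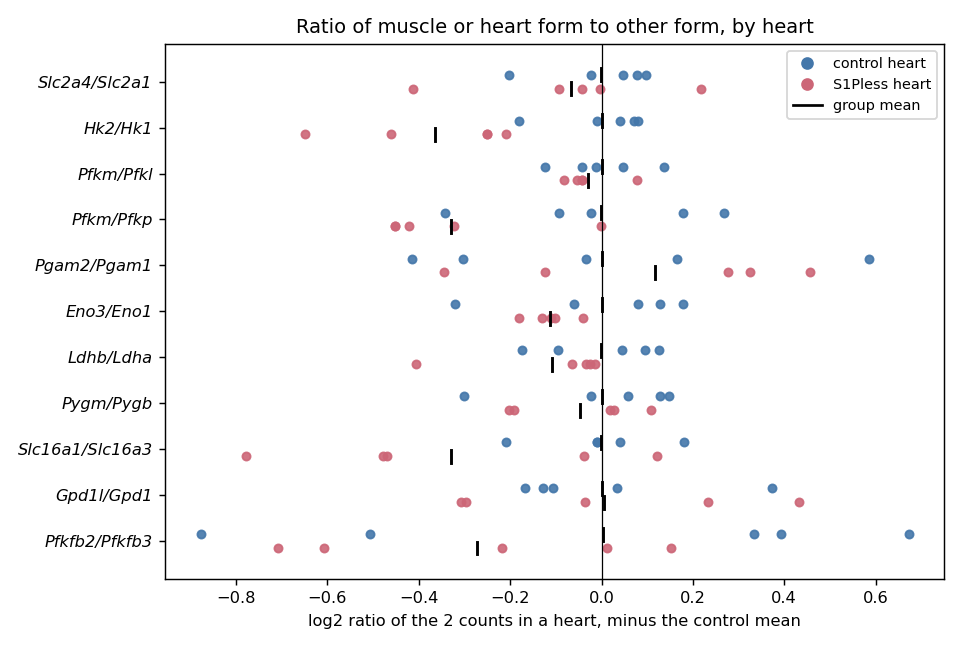
Log2 ratio of the counts of a muscle or heart form to another form in each heart, less the control mean of that ratio, for 11 pairs. In Slc16a1 over Slc16a3 the first gene was not classed as a muscle or heart form. Dots are hearts (5 a group) and short lines are group means. Hk2/Hk1 is the only pair in which the groups do not overlap.

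All 8 genes of lower glycolysis had log2 fold changes below 0, from -0.27 to -0.10, and none was called. Aldoa, the aldolase of muscle and red cells and the most abundant member by counts, had 2593.2, 2346.0, 2983.9, 2283.9 and 2122.3 CPM in the controls and 2112.6, 2450.3, 2050.2, 2188.4 and 1815.5 CPM in the S1Pless hearts. Its groups overlapped, with 3 S1Pless hearts below all controls (log2 fold change -0.22 ± 0.12, edgeR adjusted p = 0.34). Pgk1, phosphoglycerate kinase, which makes the first ATP of glycolysis, had 76.6, 63.4, 78.1, 70.4 and 75.6 CPM in the controls and 54.9, 65.4, 54.4, 62.0 and 64.8 CPM in the S1Pless hearts. Only control replicate 2 and S1Pless replicates 2 and 5 overlapped, and the log2 fold change was -0.27 ± 0.09 (edgeR adjusted p = 0.108). Eno3, the muscle enolase, had 1210.1 ± 208.3 CPM in the controls and 1034.8 ± 101.4 CPM in the S1Pless hearts, and Pgam2, the muscle phosphoglycerate mutase, 433.0 ± 96.4 and 404.8 ± 81.1 CPM. Tpi1, which interconverts the triose phosphates, and Pkm, the pyruvate kinase of muscle, had log2 fold changes of -0.14 ± 0.10 and -0.18 ± 0.09.

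Levels of some ubiquitous glycolytic genes are uncertain, since copies elsewhere in the genome hold the same sequence. In the GENCODE M21 transcripts, other genes contain 67.5% of the windows of 75 bases in Pgk1, 65.4% of those in Eno1 and 40.6% of those in Pgam1, against at most 24.3% in any other member. Eno1 stood at 45.8 to 60.4 CPM and Pgam1 at 6.27 to 10.2 CPM over all 10 hearts. Per kilobase Eno3 therefore appeared as 98.5 ± 0.213% of both enolases and Pgam2 as 99.1 ± 0.243% of both mutases in controls, shares that depend on how reads with several matches were counted. Gapdh, the remaining glycolytic step and no member of this set, is an extreme case with 80.3% shared windows and a count of 150 to 11563 reads a library. Its S1Pless levels of 6.77 and 578.5 CPM in replicates 1 and 2 lay on either side of the control range of 220.0 to 375.6 CPM. Whether the shared sequence produced this spread was not tested.

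**Figure D3:**
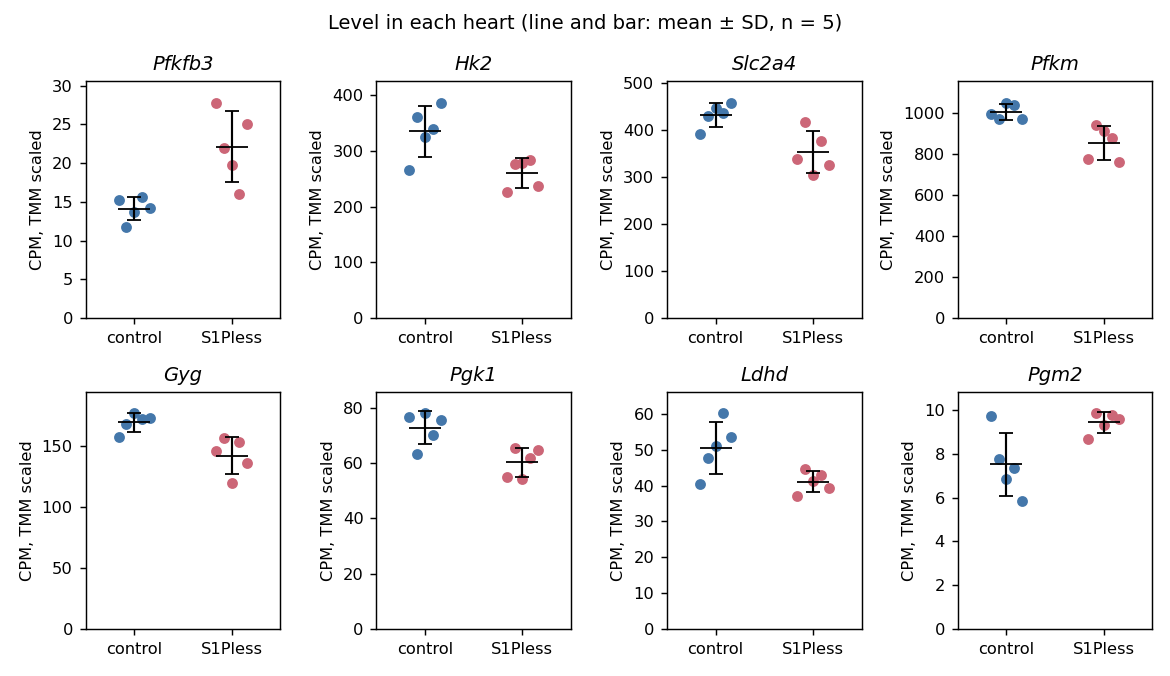
TMM-scaled CPM in each heart for 8 members, with axes from 0; dots are hearts (5 a group) and lines with bars are means and SD. Pfkfb3, Pfkm and Gyg are the 3 genes without overlap between groups, and Pfkfb3 alone passed the test.

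No lactate gene was called. Ldhb, the heart form of lactate dehydrogenase, which favours the use of lactate, had 1357.9, 1007.3, 1418.1, 1130.2 and 1030.5 CPM in the controls and 1037.0, 1095.4, 967.5, 961.4 and 856.4 CPM in the S1Pless hearts, and the groups overlapped (log2 fold change -0.27 ± 0.12, edgeR adjusted p = 0.23). Ldha, the form of skeletal muscle and many other tissues, counted here among the other forms, had 452.1 ± 39.4 and 405.5 ± 29.8 CPM. The log2 ratio of Ldhb to Ldha was 1.32 to 1.37 in S1Pless replicates 1 to 4 and 0.98 in replicate 5. Ldhd, which handles D-lactate in mitochondria, had 40.5, 47.7, 51.1, 60.2 and 53.5 CPM in the controls and 37.1, 44.6, 41.4, 42.9 and 39.4 CPM in the S1Pless hearts. Control replicate 1 was the only control inside the S1Pless range, and the log2 fold change was -0.30 ± 0.10 (edgeR adjusted p = 0.12). The edgeR adjusted p was 0.0352 without control replicate 1 and up to 0.264 with another heart left out. Of the Ldhd exon bases 42.2% overlap genes on the opposite strand in GENCODE M21, and the sources used here give no strand setting for the counts. Slc16a1, the lactate and pyruvate carrier MCT1, had 213.7 ± 34.2 CPM in the controls and 178.6 ± 21.2 CPM in the S1Pless hearts. Slc16a3, the carrier MCT4 of glycolytic cells, stood at 1.65 to 2.7 CPM in all 10 hearts, highest in S1Pless replicate 5.

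Among the 10 glycogen genes 9 had log2 fold changes below 0 and none was called. Gyg, glycogenin, the protein primer on which glycogen is built, had 157.5, 168.5, 177.3, 172.9 and 173.2 CPM in the controls and 146.7, 156.6, 119.6, 153.8 and 136.1 CPM in the S1Pless hearts. The groups did not overlap, by a margin of less than 1 CPM between control replicate 1 and S1Pless replicate 2, and the log2 fold change was -0.25 ± 0.09 (edgeR adjusted p = 0.151). Pygm, the muscle phosphorylase that breaks glycogen down, had 1066.5, 1310.8, 1285.0, 1376.9 and 1179.3 CPM in the controls and 848.6, 1101.6, 1218.5, 1194.3 and 1068.9 CPM in the S1Pless hearts. Only S1Pless replicate 1 lay below all controls (log2 fold change -0.20 ± 0.12, edgeR adjusted p = 0.387). Pygb, the brain form, made up 28.2 ± 2.59% of both phosphorylases per kilobase in controls and 28.9 ± 2.04% in S1Pless hearts.

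None of the genes of synthesis, branching or phosphorylase kinase passed. Gys1, the muscle glycogen synthase, had a log2 fold change of -0.27 ± 0.17, Gbe1, the branching enzyme, -0.15 ± 0.12, and Ugp2, which makes UDP-glucose, -0.13 ± 0.16. Phka1 and Phkg1, subunits of muscle phosphorylase kinase, had -0.22 ± 0.14 and -0.09 ± 0.29. Phkg1 varied most within groups among the 34 members with a mean of at least 5 CPM (SD 0.51 on the log2 scale), with 20.4 to 43.7 CPM in the controls and 16.1 to 40.6 CPM in the S1Pless hearts. Other genes share 24.2% of its transcript windows. Of the phosphoglucomutases, Pgm1 on chromosome 4, which links glycogen to glycolysis, had 240.2 ± 22.3 and 206.8 ± 25.4 CPM. Pgm2 on chromosome 5, a far less abundant relative, stood at 7.52 ± 1.43 and 9.44 ± 0.478 CPM. Its log2 fold change was 0.33 ± 0.13 (edgeR adjusted p = 0.164, 0.0467 without control replicate 1 and 0.0233 with library totals alone). With another heart left out the edgeR adjusted p of Pgm2 was up to 0.296. Older mouse nomenclature used these names the other way round.

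The glycerol phosphate dehydrogenases, which draw triose phosphate off to lipid synthesis and carry reducing equivalents, were not called either. Gpd1l had 54.5, 81.6, 62.8, 74.2 and 81.3 CPM in the controls and 50, 68.2, 60.4, 72.2 and 59.4 CPM in the S1Pless hearts, with overlap (log2 fold change -0.19 ± 0.13, edgeR adjusted p = 0.431). Gpd1 had 39.3 to 81.8 and 34.6 to 69.5 CPM.

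The members also varied together within groups. On log2 CPM less the group mean, over the 34 members with a mean of at least 5 CPM, the first component held 51.3% of the variance. Pgam2, Pfkfb1, Eno3, Ldhb and Pfkfb3 stood highest on its positive side and Gpd1, Gys1, Pygb, Ugp2 and Phka1 lowest on its negative side. Its score was highest in control replicate 1 and S1Pless replicate 1, at 1.58 and 1.42, and lowest in control replicate 5 and S1Pless replicate 4, at -1.05 and -0.76. Eno3 and Pgam2 had a correlation of 0.96 over the 10 hearts, and Eno3 and Hk1 one of -0.77. These values share libraries and scaling and are descriptions without a test. The 14 members on the positive side had a median transcript length of 1848 bases and the 20 on the negative side one of 3070 bases (Spearman rho between loading and length -0.63 across genes). Pfkfb3, with a transcript of 4801 bases and a positive loading, went against that order. Whether RNA quality or library preparation moved with the component was not tested.

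**Figure D4:**
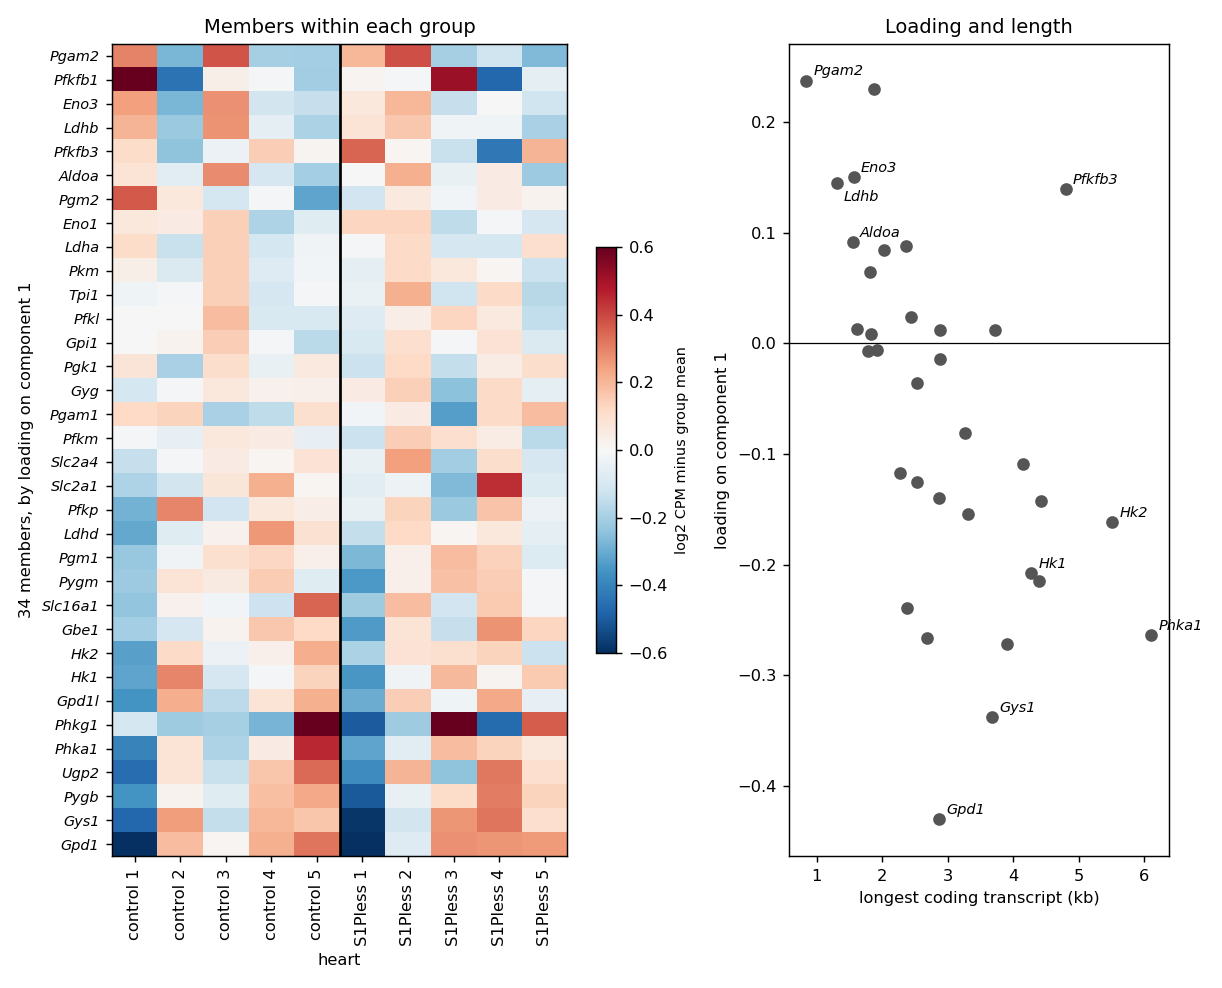
Left, log2 CPM less the group mean of 34 members in each heart, ordered by loading on the first component, with the colour scale ending at 0.6 either way; right, loading of each member against the length of its longest coding transcript. Control replicate 1 and S1Pless replicate 1 are low in the genes at the bottom, which include Gpd1 and Gys1.

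Beyond the members, lists of further glucose genes gave few calls. These lists were chosen with earlier results of these data known, so the shares called in them are descriptions and show no excess. Of 19 tested genes of other transport and glycolysis steps 2 were higher and none lower, or 10.5%, against 3.4% and 0.316% of all genes tested, with a median log2 fold change of -0.14. They were Hk3, the hexokinase of myeloid cells, from 1.71 ± 0.347 to 3.7 ± 0.984 CPM (2.18-fold, edgeR adjusted p = 0.0177), and Emb, a chaperone of lactate carriers, from 1.33 ± 0.316 to 2.8 ± 1.06 CPM (2.11-fold, edgeR adjusted p = 0.0407). Without control replicate 3 or 4 Hk3 was no longer called (adjusted p up to 0.0538), and Emb was no longer called when any of 7 hearts was removed (adjusted p up to 0.109). With the title number block neither passed (adjusted p of 0.107 and 0.203), and limma-voom did not call Emb (adjusted p = 0.0554). Both were lowest in S1Pless replicate 4 and highest in replicate 5 among the S1Pless hearts, as was the macrophage marker sum, and its part in them was not tested.

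Of 21 genes that control glucose uptake Arrdc4, an arrestin-like gene that glucose induces through the sensor MondoA and that holds back uptake, was the single call, or 4.76% of the list against 3.72% of all genes in either direction. It had 19.4, 15.1, 20.4, 13.5 and 17.3 CPM in the controls and 42.1, 27.8, 34.9, 28.3 and 37.8 CPM in the S1Pless hearts, without overlap (2.0-fold, log2 fold change 1.00 ± 0.14, edgeR adjusted p = 0.00478). It passed under all 18 alternatives, with adjusted p up to 0.0462. Its relative Txnip, known for the same regulation, stood at 479.2 to 909.1 CPM in the controls. In S1Pless hearts Txnip was at 382.5 to 433.4 CPM in 4 hearts and 928.1 CPM in replicate 3 (log2 fold change -0.35 ± 0.24, edgeR adjusted p = 0.451). Replicate 3 was the only S1Pless heart above all controls. Without replicate 3 the log2 fold change was -0.67 and Txnip passed as lower (edgeR adjusted p = 0.0381). That pass thus rests on removing the heart that went the other way. With another heart left out the edgeR adjusted p of Txnip was up to 0.72. The smallest p among genes not called in this list was that of Tbc1d4, the Akt substrate that gates GLUT4 movement, at a log2 fold change of -0.36 ± 0.11 (edgeR adjusted p = 0.0775). Tbc1d4 passed as lower in DESeq2 (adjusted p = 0.013) and without S1Pless replicate 3 (edgeR adjusted p = 0.0272). With another heart left out its edgeR adjusted p was up to 0.188.

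None of 18 other glycogen genes was called, the smallest p being that of Ppp1r3d, a glycogen-targeting subunit of protein phosphatase (log2 fold change -0.41 ± 0.11, edgeR adjusted p = 0.0601). DESeq2 and limma-voom each called Ppp1r3d lower (adjusted p of 0.0141 and 0.0338) and no other gene of that list. Ppp1r3d also passed without control replicate 1 (edgeR adjusted p = 0.025), while removing another heart gave an edgeR adjusted p of up to 0.143. None of 14 genes of the pentose phosphate and hexosamine branches was called by edgeR, DESeq2 or limma-voom, with G6pdx, the entry enzyme of the first, at 0.43 ± 0.14 (edgeR adjusted p = 0.103, 0.0214 with library totals alone). At an unadjusted p below 0.05 edgeR gave 2 genes in the glycogen list and 1 in the other, where it gave 19.9% of all genes, so both lists lay below that share. Among 16 hypoxia targets outside glycolysis Egln3, an oxygen-sensing hydroxylase, was the single edgeR call, or 6.25% against 3.72% of all genes in either direction, and was lower, 80.6 ± 21.8 against 48.1 ± 7.18 CPM (1.68-fold, edgeR adjusted p = 0.0281), while 10 of the other 15 also lay below a log2 fold change of 0. DESeq2 also called Bnip3, a gene of mitophagy, lower (adjusted p = 0.00826). Its groups did not overlap, at 117.1 to 129.4 CPM in the controls and 78.7 to 115.8 CPM in the S1Pless hearts. For Bnip3 edgeR gave an adjusted p of 0.0656, which was 0.029 without S1Pless replicate 4 and up to 0.158 with another heart left out. Removing control replicate 2, 3 or 5, or S1Pless replicate 1 or 2, ended the Egln3 call, with adjusted p between 0.0507 and 0.0654.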

How the data were processed

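RNA sequencing counts from 10 hearts were analysed. The authors deposited raw read counts per Ensembl gene in 1 table. Per the submitters' processing notes, STAR 2.7.8a, featureCounts 2.0.1 and the build GRCm39 were used. The sources used here give neither the strand setting nor the treatment of reads with several matches. Per the labels' protocols the libraries came from a stranded mRNA kit. Symbols, exon lengths and transcript windows of 75 bases came from GENCODE M21, and the second Aldoa identifier (at most 11 reads) was left out.

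Groups follow the genotype in the labels; replicates are numbered in accession order and pair no animals. edgeR 4.0.16 (R 4.3.3) was used with filterByExpr (minimum count 10), TMM factors, robust glmQLFit and glmQLFTest. Tests were two-sided, p-values were adjusted by Benjamini-Hochberg over 12992 genes, and the threshold was 0.05. The SE is the log2 fold change over the square root of F. Isoform ratios were compared by exact permutation over 252 arrangements with 0.5 added to each count. The fit was tested on a single draw of simulated counts, with the altered genes picked at random from all tested genes. It called 10.2% of genes altered 1.3-fold, 63.3% at 1.5-fold and 83.7% at 2.0-fold, and 4.62% of all its calls were false. The labels give each heart as its own sample, and p-values measure the spread between these hearts. Alternatives were RLE factors, library totals alone, DESeq2 1.42.0 and limma-voom with quality weights (limma 3.58.1). Further alternatives were other filters, terms for the title series and title numbers, and each heart left out.

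The members and all lists were chosen with earlier results of these data known. Full values are given for members that were called, had groups without overlap, had the 5 smallest p-values or the highest level of a role group, or formed an isoform ratio with a raw p below 0.05. Of further lists up to 4 called genes are named, otherwise the gene with the smallest p. Other members are given by mean or range. Gapdh, Txnip, Tbc1d4, Bnip3, Pfkfb4 and Gm29427 were named after their values were seen.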

Additional observations from a re-analysis of the deposited data

Results flagged for a closer look

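Among 114 groups of 5 hearts examined for a single value far from the rest, 7 held one, and chance alone gives about 1 in 20 such groups. Slc2a1 was at 26.6 CPM in S1Pless replicate 4, against 16.1 to 19 CPM in the other 4 S1Pless hearts. Pfkfb2 was at 0.851 CPM in S1Pless replicate 2, against 0.554 to 0.587 CPM in the others, from at most 17 reads. Phkg1 was at 43.7 CPM in control replicate 5, against 20.4 to 23.1 CPM in the other controls. Among genes outside the set, Txnip was at 928.1 CPM in S1Pless replicate 3, against 382.5 to 433.4 CPM, and G6pdx at 10.3 CPM in control replicate 1, against 7.52 to 8.28 CPM. The log2 ratio of Pfkm to Pfkl was 3.08 in S1Pless replicate 2, against 2.92 to 2.96, and that of Ldhb to Ldha was 0.979 in S1Pless replicate 5, against 1.32 to 1.37.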

How the results depend on the processing

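Of 647 refitted log2 fold changes of the 36 members 630 kept their sign and 17 in 5 members changed it. Hk1, at 0.00, moved to -0.012 with RLE factors, -0.015 in DESeq2, -0.016 in limma-voom, -0.024 with the title series and between -0.084 and 0.089 with a heart left out. With library totals alone Pgam2 moved to 0.045, Eno1 to 0.036 and Phkg1 to 0.048. With a heart left out Pgam2 ranged from -0.204 to 0.006, Slc16a3 from -0.042 to 0.159 and Phkg1 from -0.337 to 0.177.

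Calls over all genes were 442 higher and 41 lower. They were 1420 and 13 with library totals alone, 753 and 266 in DESeq2, and 80 and 8 with a block for hearts with neighbouring title numbers. Leaving out 1 heart gave 118 to 504 higher and 8 to 85 lower. Members called higher numbered 2 with library totals alone (Pfkfb3 and Pgm2), 0 with that block and 0 to 2 with a heart left out. Members called lower numbered 5 in DESeq2 and 0 to 2 with a heart left out (Hk2 and Ldhd without control replicate 1). The members' median was -0.065 with library totals alone. The cause of these shifts was not tested.

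The number of hearts kept any lone isoform ratio at an adjusted p of 0.0873 or more, so the tests of ratios say nothing about stability. With a heart left out the difference ran from -0.103 to 0.097 for Gpd1l over Gpd1, -0.06 to 0.005 for Pfkm over Pfkl and -0.138 to 0.019 for Slc2a4 over Slc2a1. The title numbers have no stated meaning, and the block made from them is not a pairing that the labels give. Depth limits Pfkfb2 and Slc16a3 most, with 4 to 17 and 28 to 57 reads a library.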
